A study of Mus musculus with 77 samples.

Results

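The genes described here make sterols and fatty acids or control that supply. They were taken by symbol from a list of 38 genes, and all 38 were found among the 24940 genes that the tables of MR cells list and the 25124 genes of the other full tables. By role, 8 genes belong to the mevalonate steps and 11 to the steps from squalene to cholesterol. A further 6 are grouped around the transcription factor SREBP as SREBP regulators, a group that includes the sterol carrier Stard4. There are 10 genes of fatty acid synthesis and desaturation, and 3 of sterol efflux and receptor degradation.

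Total RNA of 63 mouse samples in 18 groups was sequenced 2 h after vehicle, aldosterone (10 nM, the main mineralocorticoid) or corticosterone (100 nM, the main glucocorticoid of rodents), to ask how the mineralocorticoid receptor (MR, gene Nr3c2) answers with and without the glucocorticoid receptor (GR, gene Nr3c1). The adenocarcinoma cells, parental or labelled GRKO, had been given either MR or a form named MR580C, and 1 parental line without added MR received aldosterone or vehicle. Colon organoids (intestinal epithelial cells in a gel culture), WT (wild type) and GRKO by their labels, likewise received aldosterone or vehicle. Cell groups had 3 samples, except 2 for aldosterone and 2 with a column for corticosterone in parental MR cells; WT organoids had 6 and GRKO organoids 5 per group. Before treatment every culture had been in serum stripped of steroids with charcoal. The titles name the parental MR line MR-1G12 and the GRKO MR line MR-2B12, so these lines differ in that designation as well as in GR, and the 2 cannot be told apart. The labels do not say whether a line is a single clone, how the added MR is driven, from which mice the organoids came, or whether replicates came from separate cultures, so the p-values describe sample-to-sample spread that may be technical only.

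Library totals ran from 22.68 to 61.12 M reads in the 62 samples with a column. Vehicle cells without added MR held a mean log2 value of 4.69 for Nr3c2, against 10.84 in parental MR cells. The Nr3c1 transcript was not lower in GRKO MR cells (13.00) than in parental MR cells (12.87), whereas it was 9.12 in GRKO organoids and 11.24 in WT organoids; these tables were normalized separately, and the lines are called by their labels. Tsc22d3, a glucocorticoid target, had a log2 fold change of 3.20 after corticosterone in parental MR cells and of 0.61 in GRKO MR cells in the authors' deposited tables. Organoids carried the epithelial markers Epcam (14.56 in WT vehicle) and Krt8 (16.62), while in parental MR vehicle libraries the summed log2 level of 13 intestinal epithelial markers was 5.53 to 5.54 and that of 3 fibroblast markers 16.57 to 16.66. The endothelial marker sum was 9.90 to 9.94 in vehicle GRKO MR cells and 2.78 in all 3 vehicle parental MR libraries. The columns of aldosterone 2 and 3 in GRKO MR580C cells differed by no more than 1e-06 and entered as 1 library. The authors' deposited table lists both, so its p-values for that comparison may count 1 library as 2.

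Cholesterol is built from acetyl-CoA through mevalonate, isoprenoids and squalene. SREBP proteins, held in the endoplasmic reticulum with their escort SCAP by the INSIG proteins when sterol is plentiful, are cut and sent to the nucleus when sterol falls, and there switch on most of these genes, Insig1 included. SREBP-1c leans towards fatty acid genes and SREBP-2 towards sterol genes, and glucocorticoids are known to act on lipid supply in liver and fat.

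Promoter windows from RefSeq (build GRCm38.p6, 250 bases before to 50 after a start, 300 bases) were matched for 30 of the 38 genes, with 38 windows in all. The sterol regulatory element, searched on both strands as TCACCCCAC, was held by 0.551% of 32851 windows and by 1 of the 38, that of Hmgcs1, and the looser TCACNCCAC by 1.24% and again by 1 of the 38, that of Hmgcs1. A CCAAT box was held by 24 of the 38 windows (of 23 genes), against 37.4% of all windows, and the palindrome ACANNNTGT, the core letters of a steroid receptor element, by 2 of the 38 (Acat2 and Acss2), against 6.85% of all windows. The windows of 3 genes that lead the results below are shown: Hmgcs1, which rose in 3 comparisons, Insig1, which fell in 3, and Elovl6, which differed between the organoid lines. Capitals mark matches to the letters searched.
Hmgcs1 (chr13:119690101-119690400, plus strand): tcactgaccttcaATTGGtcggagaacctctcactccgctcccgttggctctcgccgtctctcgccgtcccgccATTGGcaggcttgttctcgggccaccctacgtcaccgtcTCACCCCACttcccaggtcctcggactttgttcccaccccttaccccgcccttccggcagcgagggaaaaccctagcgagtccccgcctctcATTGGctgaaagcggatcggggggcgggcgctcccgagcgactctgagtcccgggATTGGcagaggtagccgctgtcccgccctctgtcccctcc
Insig1 (chr5:28071162-28071461, plus strand): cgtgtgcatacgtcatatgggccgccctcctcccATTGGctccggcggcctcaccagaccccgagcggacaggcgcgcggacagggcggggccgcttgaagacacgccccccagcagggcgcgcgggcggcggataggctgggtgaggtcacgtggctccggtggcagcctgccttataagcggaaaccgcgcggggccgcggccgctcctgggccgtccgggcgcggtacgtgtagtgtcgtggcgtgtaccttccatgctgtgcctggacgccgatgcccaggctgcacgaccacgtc
Elovl6 (chr3:129532136-129532435, plus strand): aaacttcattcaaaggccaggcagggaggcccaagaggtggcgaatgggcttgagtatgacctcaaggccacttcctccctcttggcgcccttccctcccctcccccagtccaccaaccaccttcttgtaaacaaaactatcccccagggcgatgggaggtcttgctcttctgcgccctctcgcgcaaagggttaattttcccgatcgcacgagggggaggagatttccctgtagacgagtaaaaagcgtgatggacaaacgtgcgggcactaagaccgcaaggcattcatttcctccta
The Hmgcs1 window held 1 sterol regulatory element and 4 CCAAT boxes, the Insig1 window 1 CCAAT box, and the Elovl6 window 0 matches to any of the 4 searches, which says only that these letters are not in that window.

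Most of these genes were well expressed. In vehicle cells without added MR, on a log2 scale per kilobase of transcript, the level ran from 14.63 for Scd2 (a stearoyl-CoA desaturase), 13.37 for Fdps (farnesyl diphosphate synthase) and 13.12 for Hmgcs1 down to 6.92 for Tm7sf2 (a sterol reductase). The sterol exporters Abcg1 and Abca1 stood far below, at -1.44 and -3.14. Abca1 missed the filter on low values (log2 3.32) in every cell table except that of parental MR580C cells, and Abcg1 in 4 of the within-table cell comparisons, so 36 or 37 members were tested there and 38 in the other tables. In those other tables the lowest values, 9.16 (parental MR580C cells), 5.93 (WT organoids) and 6.65 (GRKO organoids), lie above the filter. It therefore removed no gene for a low value, and Abca1 stayed in at 9.22 to 9.32 in parental MR580C cells. Shares over all genes in these tables include genes near the lowest value and are not directly comparable with those of the other tables.

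Differences from vehicle in these genes were small, at most 0.40 in size on the deposited log2 scale, which shrinks them. The authors' deposited log2 fold changes were larger for several called genes, at -0.64 for Lpin1 and -0.51 for Insig1 with corticosterone in parental MR cells and -0.57 for Mylip with aldosterone in WT organoids. A gene is called raised or lowered when its adjusted p was under 0.05 (limma, 2-sided, Benjamini-Hochberg over all genes tested in the table). Aldosterone in parental MR cells called 0 of 37 members (0 higher and 1 lower at an unadjusted p under 0.05, beside 391 and 273 of 12479 genes; 1 lowered in the authors' deposited table, beside 0.105% of its genes), beside 0.697% of all genes tested. With the replicate number as a block it lowered 2, Lpin1 and Insig1, and 365 of all genes passed, beside 87 without the block. Aldosterone in GRKO MR cells raised 1 of 36 members (background 0.432% raised), and 30 of 36 differences were positive, beside 50% over all genes tested. Corticosterone in parental MR cells lowered 2 of 37 (background 1.04% lowered), with 8 of 37 differences positive, beside 50.1% over all genes tested. Corticosterone in GRKO MR cells called 0 of 36 by limma (background 0.248%), although 17 were higher and 1 lower at an unadjusted p under 0.05, beside 497 higher and 651 lower of all 12517 genes tested. There 29 of 36 differences were positive, beside 48.9% over all genes tested, and the authors' deposited table called 6 raised (0.299% of its genes).

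In parental MR580C cells aldosterone raised 2 of 38 members (background 0.719% raised) and 31 of 38 differences were positive, beside 49.5% over all genes tested. Corticosterone there raised 1 and lowered 6 (backgrounds 3.45% raised and 3.47% lowered), with 22 of 38 positive, beside 51.7%. Set directly against aldosterone, corticosterone had 7 of 38 members called lower (background 1.37% lower). Of the 38 differences 7 were positive, beside 50.2% over all genes tested. The doses differed as well (100 nM corticosterone, 10 nM aldosterone), so hormone and dose cannot be told apart. Aldosterone called 0 of 36 members in GRKO MR580C cells by limma (background 0.298%). At an unadjusted p under 0.05, 5 were higher and 1 lower, beside 1060 and 972 of 12418 genes. The authors' deposited table, where the equal libraries may count as 2, called 2 raised, beside 1.84% of its genes. Aldosterone called 0 of 36 in parental cells without added MR (background 0.00767%), where 31 of 36 differences were positive, beside 50.6% over all genes tested. Unadjusted, 6 were higher and 0 lower there, beside 285 and 312 of 13038 genes. The authors' deposited table called 0 there, beside 0.0986% of its genes. In WT organoids aldosterone lowered 5 of 38 members (background 2.36% lowered), and in GRKO organoids 1 of 38 (background 0.195% lowered). Differences leaned lower in both organoid lines. In WT organoids 14 of 38 were positive, beside 48% over all genes tested, and in GRKO organoids 11 of 38, beside 46.9%. In all, 12 of the 38 genes passed the test in at least 1 of 15 comparisons and 26 in none. Comparisons of aldosterone and corticosterone in the same line share their vehicle libraries. The authors' deposited tables, with their own test, called 4 members raised by aldosterone in GRKO MR cells (0.359% of all genes raised), 3 lowered by corticosterone in parental MR cells (0.906% lowered) and 3 raised by aldosterone in parental MR580C cells (0.727% raised). They called 4 raised and 7 lowered by corticosterone in parental MR580C cells (4.23% and 4.56%), 5 lowered in WT organoids (3.12%) and 2 lowered in GRKO organoids (0.519%).

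**Figure D1:**
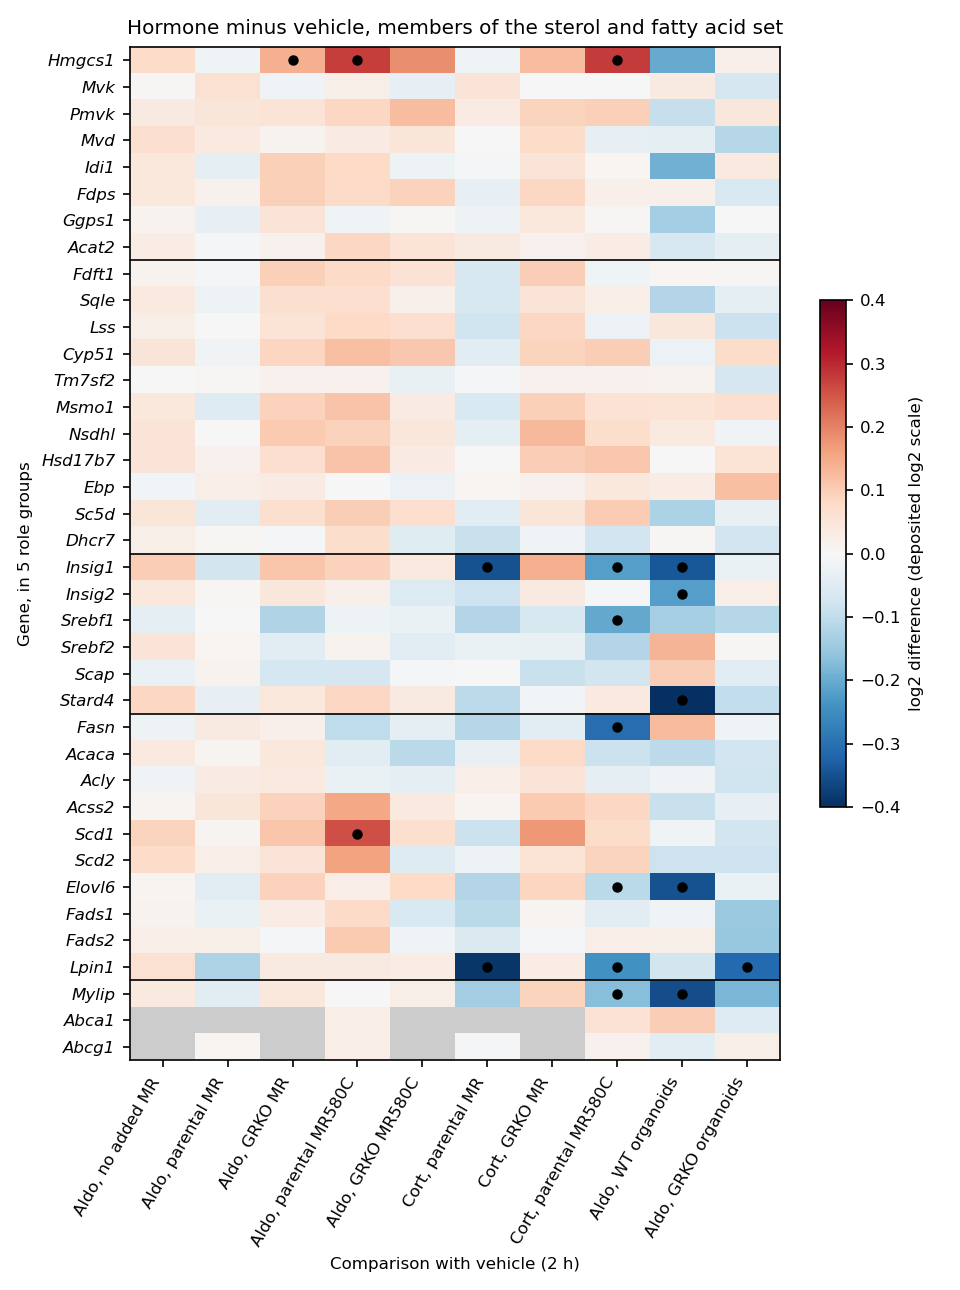
Log2 differences, hormone minus vehicle, of the 38 genes (rows, in their 5 role groups) in 10 comparisons (columns). Red is higher and blue lower after hormone, the colour scale ends at 0.4 in either direction, grey is not tested, and black dots mark an adjusted p under 0.05. Among the cell columns, the sterol synthesis rows are mostly red or pale red in all but those of parental MR cells. Blue cells gather under corticosterone in parental MR cells and under aldosterone in both organoid lines. Under corticosterone in parental MR580C cells 22 of 38 are positive, while 6 dots mark lower and 1 marks higher values.

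Several of these counts rested on single libraries. For aldosterone in GRKO MR cells, 0 members were called without vehicle 1, vehicle 3, aldosterone 1 or aldosterone 3, 2 without aldosterone 2, and 12 (10 higher, 2 lower) without vehicle 2. Without vehicle 2, 436 of all genes passed there, beside 124 with every library. For corticosterone in the same line, 4 were raised without corticosterone 1 (177 of all genes passed, beside 31 with every library) and 1 without vehicle 2. In parental MR580C cells the aldosterone count was 1 without vehicle 3 and 4 without aldosterone 3, and the corticosterone count was 4 without corticosterone 3. The direct comparison of both hormones there gave 3, 2 and 3 without corticosterone 2, corticosterone 3 and aldosterone 2. In GRKO MR580C cells, leaving out aldosterone 1 or the merged library of aldosterone 2 and 3 left 1 aldosterone library. It is assumed to vary like the vehicle group, so no count is given for these fits. The median difference of the members there ran from -0.01 to 0.04 with 1 library left out. Without aldosterone 3, 2 members (Insig1 and Hmgcs1) were raised in cells without added MR (49 of all genes passed, beside 1 with every library). In GRKO organoids 3 were lowered without vehicle 1 and 0 without aldosterone 2, whereas in WT organoids the count stayed between 5 and 6. Without vehicle 1, 970 of all genes passed in GRKO organoids, beside 263 with every library.

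Among the mevalonate steps, Hmgcs1 was the 1 gene of 8 that passed the test. It encodes the cytosolic HMG-CoA synthase, which makes the precursor of mevalonate, and lies at chr13:119690351-119708260 (mm10). In parental MR580C cells its log2 values were 13.59, 13.60 and 13.50 with vehicle, 13.85, 13.91 and 13.75 with aldosterone, and 13.84, 13.89 and 13.79 with corticosterone. Every hormone library lay above every vehicle library, and both hormones gave nearly the same level. Hmgcs1 thus rose by 0.28 ± 0.042 (SE) with aldosterone (adjusted p = 0.00076) and by 0.28 ± 0.042 with corticosterone (adjusted p = 0.00011), and corticosterone differed from aldosterone by 0.0037 (95% interval -0.084 to 0.091).

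In GRKO MR cells Hmgcs1 stood at 15.20, 15.26 and 15.13 with vehicle and at 15.36, 15.30 and 15.36 with aldosterone. These groups did not overlap either, and the rise of 0.14 ± 0.03 passed the test (adjusted p = 0.024). That call was lost without vehicle 1 (adjusted p = 0.087), vehicle 3 (0.20), aldosterone 1 (0.18) or aldosterone 3 (0.068), and with no trend in the variance prior (0.27). After corticosterone in GRKO MR cells the values were 15.37, 15.42 and 15.40 against 15.28, 15.34 and 15.21 (0.12 ± 0.031, adjusted p = 0.26), and the authors' deposited table called it raised (log2 fold change 0.18, adjusted p = 0.027). In GRKO MR580C cells aldosterone gave 13.48 and 13.42 against 13.25, 13.25 and 13.29 (0.19 ± 0.038, adjusted p = 0.085), again without overlap, and the authors' deposited table called this raised too (log2 fold change 0.26, adjusted p = 0.00024). In parental MR cells Hmgcs1 was 14.36, 14.36 and 14.33 with vehicle and 14.34 and 14.32 with aldosterone, and the difference under corticosterone was -0.02 ± 0.038 (adjusted p = 0.97). The response in parental MR cells minus that in GRKO MR cells was -0.16 ± 0.046 for aldosterone (adjusted p = 0.33) and -0.14 ± 0.048 for corticosterone (adjusted p = 0.22), so a difference between these lines did not pass the test. In WT organoids Hmgcs1 ran from 14.06 to 14.40 (median 14.31) with vehicle and from 13.86 to 14.24 (median 14.08) with aldosterone, which overlap (-0.20 ± 0.076, adjusted p = 0.16).

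The other 7 genes of the mevalonate steps (Mvk, Pmvk, Mvd, Idi1, Fdps, Ggps1 and Acat2) passed in no comparison. With Hmgcs1 included, 7 of 8 differences were positive for aldosterone in GRKO MR cells (median 0.05), 8 of 8 for corticosterone in GRKO MR cells (median 0.06), 7 of 8 for aldosterone in parental MR580C cells (median 0.08) and 8 of 8 for aldosterone in cells without added MR (median 0.04). In WT organoids 2 of 8 were positive, with a median of -0.08. Over all genes tested the medians of these comparisons lay within 0.01 of 0.

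Of the 11 genes from squalene to cholesterol, 0 passed by limma in any comparison with vehicle. For aldosterone in GRKO MR cells 8 of the 11 were higher and 0 lower at an unadjusted p under 0.05, beside 597 higher and 832 lower of all 12486 genes tested, and 10 differences were positive (median 0.06). The authors' deposited tables called Nsdhl, a sterol dehydrogenase, raised by aldosterone (log2 fold change 0.17) and by corticosterone (0.22) in GRKO MR cells. They also called Hsd17b7, a sterol ketone reductase, raised by corticosterone in GRKO MR cells (0.17) and parental MR580C cells (0.16). Cyp51, the lanosterol demethylase, was called raised by corticosterone in parental MR580C cells (0.12) and by aldosterone in GRKO MR580C cells (0.17). The last of these calls may count the equal libraries as 2. All 11 were positive for aldosterone in parental MR580C cells (median 0.08), 10 of 11 for corticosterone in GRKO MR cells (median 0.08) and 10 of 11 for aldosterone without added MR (median 0.04), but 2 of 11 for corticosterone in parental MR cells (median -0.04). Fdft1 (squalene synthase, chr14:63145151-63179578) and Lss (lanosterol synthase, chr10:76531605-76557139) passed only where responses of both MR lines were compared.

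Fdft1 was 11.66, 11.65 and 11.63 with vehicle and 11.59 and 11.57 with corticosterone in parental MR cells, and 12.22, 12.23 and 12.17 against 12.27, 12.33 and 12.31 in GRKO MR cells. Values with corticosterone thus lay below vehicle in the parental line and above it in the GRKO line, without overlap in either. Lss showed the same order, with 12.49, 12.52 and 12.47 against 12.44 and 12.39 in parental MR cells and 13.13, 13.12 and 13.11 against 13.20, 13.21 and 13.19 in GRKO MR cells. The parental response was lower by 0.16 ± 0.037 for Fdft1 (difference -0.16, adjusted p = 0.031) and by 0.16 ± 0.035 for Lss (difference -0.16, adjusted p = 0.021). The tables of both lines were normalized separately, and unequal shrinkage may enter these differences.

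These differences between responses came from a fit in which 6 of 37 members were lower in parental than in GRKO MR cells under corticosterone (background 0.838% lower). There 33 of 37 differences were negative, whereas 51.3% were positive over all genes tested. Besides Fdft1 and Lss they were Insig1, Lpin1, Mylip and Elovl6, described below. Leaving out either parental corticosterone library left 1 in that group, so no calls are given for those fits. In every other fit with 1 library left out, Lpin1, Insig1 and Mylip passed. The count was 3 without parental vehicle 1 (adjusted p = 0.086 for Fdft1, 0.056 for Lss and 0.057 for Elovl6). It was also 3 without GRKO vehicle 3 (0.099, 0.073 and 0.059 for Fdft1, Lss and Elovl6) or GRKO corticosterone 2 (0.096, 0.066 and 0.064). Leaving out GRKO vehicle 1 ended the call of Fdft1 (0.070), GRKO vehicle 2 that of Lss (0.057), and GRKO corticosterone 3 those of Fdft1 (0.079) and Elovl6 (0.056). For aldosterone the same fit called 0 of 37 members by limma (background 0.259%; 13 lower and 1 higher at an unadjusted p under 0.05, beside 511 and 617 of 12753 genes). Parental MR cells against parental cells without added MR, under aldosterone, also gave 0 of 37 (background 0.476%; 5 lower and 0 higher unadjusted, beside 321 and 472 of 13028 genes), and Insig1 passed there without parental MR vehicle 2.

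Of the SREBP regulators, Insig1 passed in 5 of the 15 comparisons. It encodes the protein that retains SCAP and SREBP in the endoplasmic reticulum and lies at chr5:28071412-28078662. In parental MR cells it was 13.13, 13.04 and 13.13 with vehicle and 12.78 and 12.73 with corticosterone, well apart. It fell by 0.35 ± 0.041 on the log2 scale (adjusted p = 0.0014). In GRKO MR cells the same hormone gave 14.27, 14.28 and 14.32 against 14.11, 14.20 and 14.13, all above vehicle (0.14 ± 0.028, adjusted p = 0.086), and the authors' deposited table called it raised (log2 fold change 0.21, adjusted p = 0.00058). The difference between these responses was -0.49 ± 0.049 (adjusted p = 4.2e-05), the largest of the 37 members tested. With aldosterone Insig1 was 13.12 and 13.15 against 13.24, 13.16 and 13.24 in parental MR cells (-0.07 ± 0.035, adjusted p = 0.96). In GRKO MR cells aldosterone gave 14.180, 14.122 and 14.219 against 14.028, 14.117 and 14.046, all above vehicle. This difference of 0.11 did not pass by limma. The authors' deposited table called it raised (log2 fold change 0.16, adjusted p = 0.020).

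The hormones, given at different doses, also parted in parental MR580C cells. Insig1 was 12.52, 12.58 and 12.49 with vehicle, 12.62, 12.65 and 12.59 with aldosterone, and 12.33, 12.32 and 12.28 with corticosterone, so that no library of one group entered the range of another. Corticosterone lowered it by 0.22 ± 0.033 (difference -0.22, adjusted p = 1e-04), the aldosterone difference of 0.09 ± 0.033 did not pass (adjusted p = 0.26), and corticosterone against aldosterone gave -0.31 ± 0.033 (adjusted p = 1.4e-06). Each of these calls held whichever library was left out.

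In organoids Insig1 responded to aldosterone. WT values ran from 13.67 to 14.07 (median 13.79) with vehicle and from 13.18 to 13.66 (median 13.52) with aldosterone, without overlap, and Insig1 fell by 0.34 ± 0.082 (adjusted p = 0.014). GRKO organoids gave 13.81, 13.84, 13.59, 13.72 and 13.82 with vehicle and 13.93, 13.60, 13.85, 13.47 and 13.81 with aldosterone, which overlap widely (-0.03 ± 0.081). The difference between both responses was -0.31 ± 0.12 and did not pass (adjusted p = 0.25). Insig2, the second INSIG protein (chr1:121304353-121328024), ran from 9.89 to 10.07 with WT vehicle and from 9.68 to 9.83 with aldosterone. It fell by 0.22 ± 0.051 in WT organoids (adjusted p = 0.011), while GRKO organoids gave 0.03 ± 0.054.

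Stard4, a carrier that moves cholesterol between membranes, fell by more. WT organoids held 13.14 to 13.40 (median 13.26) with vehicle and 12.70 to 13.00 (median 12.88) with aldosterone. No libraries overlapped, and the fall of 0.40 ± 0.062 (adjusted p = 0.00024) was the largest of the 38 genes in that comparison. GRKO organoids held 13.20, 12.95, 12.90, 12.94 and 12.98 against 12.96, 12.85, 12.93, 12.84 and 12.88 (-0.10 ± 0.057, adjusted p = 0.62). WT minus GRKO responses were -0.30 ± 0.086 for Stard4 (adjusted p = 0.060) and -0.25 ± 0.071 for Insig2 (adjusted p = 0.064).

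Srebf1 encodes SREBP-1 (chr11:60199084-60220627). In parental MR580C cells it was 13.43, 13.33 and 13.48 with vehicle, 13.34, 13.35 and 13.49 with aldosterone and 13.28, 13.15 and 13.19 with corticosterone, so corticosterone alone lay below every vehicle library. It fell by 0.21 ± 0.046 with corticosterone (adjusted p = 0.0062) and differed from aldosterone by -0.19 ± 0.046 (adjusted p = 0.023). The first call was lost without vehicle 3 (adjusted p = 0.089), corticosterone 2 (0.097) or corticosterone 3 (0.051), and the second without corticosterone 2 (0.23), corticosterone 3 (0.14) or aldosterone 3 (0.15). Srebf2 (SREBP-2) and Scap passed in no comparison; the authors' deposited table called Srebf2 lowered by corticosterone in parental MR580C cells (-0.13, adjusted p = 0.031).

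**Figure D2:**
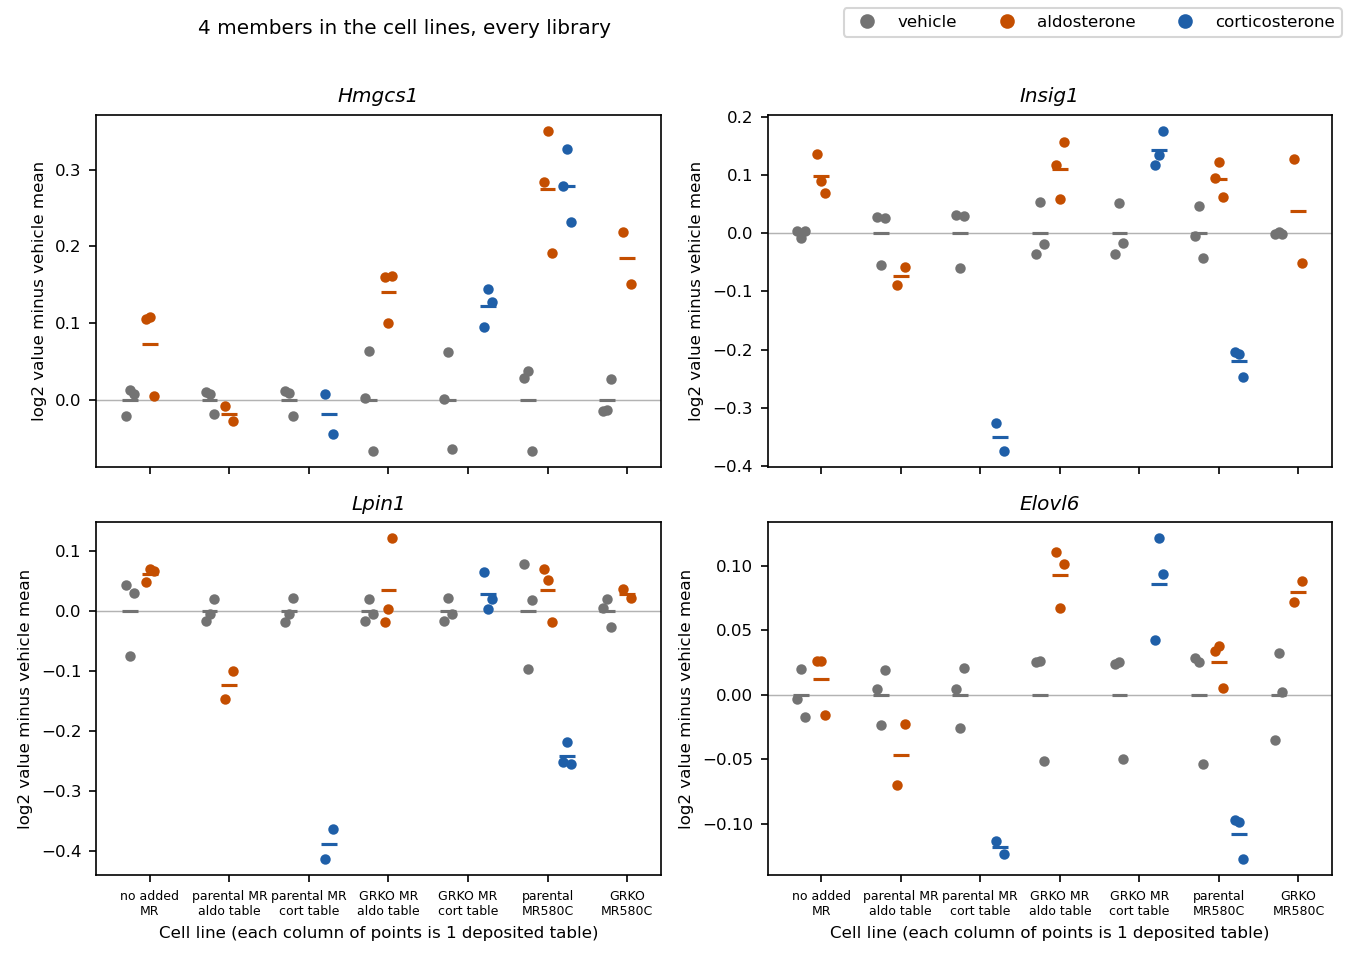
Log2 value minus the vehicle mean of the same table for Hmgcs1, Insig1, Lpin1 and Elovl6 in the cell lines. Each point is 1 library, short lines are group means, and the tables of aldosterone and corticosterone in the MR lines hold the same vehicle libraries; corticosterone points (blue) of Insig1, Lpin1 and Elovl6 lie below vehicle in parental MR and parental MR580C cells, and those of Insig1 and Elovl6 above it in GRKO MR cells.

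Among the 10 genes of fatty acid synthesis and desaturation, Lpin1 had the largest difference from vehicle in parental MR cells, under corticosterone. It encodes a phosphatidate phosphatase that makes diacylglycerol and also acts in the nucleus as a coregulator, and lies at chr12:16535669-16589770 (to 16610966 for the longer transcript in the table of parental MR580C cells). In parental MR cells it was 11.52, 11.53 and 11.56 with vehicle and 11.12 and 11.17 with corticosterone. It fell by 0.39 ± 0.034 (adjusted p = 0.00021), a call that held with any vehicle library left out. Leaving out a corticosterone library left 1, and over all these fits the difference ran from -0.41 to -0.36. Aldosterone in the same cells gave 11.50 and 11.55 against 11.63, 11.65 and 11.67, also apart (-0.12 ± 0.027, adjusted p = 0.15), and the authors' deposited table called this lowered (log2 fold change -0.23, adjusted p = 0.035). In GRKO MR cells corticosterone gave 11.75, 11.68 and 11.70 against 11.66, 11.70 and 11.68, within the vehicle spread but for 1 library (0.03 ± 0.023), and the difference between both responses was -0.42 ± 0.037 (adjusted p = 1.5e-05).

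Lpin1 in parental MR580C cells was 11.37, 11.19 and 11.31 with vehicle, 11.36, 11.34 and 11.27 with aldosterone and 11.04, 11.07 and 11.03 with corticosterone. Corticosterone libraries lay below all others, and Lpin1 fell by 0.24 ± 0.04 (adjusted p = 0.00031), with a difference from aldosterone of -0.28 ± 0.04 (adjusted p = 1e-04). In organoids Lpin1 passed in the GRKO line. GRKO organoids held 9.47, 9.50, 9.53, 9.49 and 9.76 with vehicle and 9.24, 9.10, 9.26, 9.25 and 9.35 with aldosterone, without overlap, and Lpin1 fell by 0.31 ± 0.063 (adjusted p = 0.019; 0.053 without aldosterone 2). WT organoids ran from 9.26 to 9.63 (median 9.42) with vehicle and from 9.19 to 9.49 (median 9.36) with aldosterone (-0.07 ± 0.072). The difference between the organoid responses was 0.24 ± 0.099 and did not pass (adjusted p = 0.30).

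Elovl6, the elongase that takes palmitate to stearate (chr3:129532386-129638493), was the 1 gene of the 38 whose aldosterone response differed between the organoid lines. WT organoids held 11.45 to 11.58 (median 11.53) with vehicle and 11.07 to 11.24 (median 11.17) with aldosterone. The groups lay well apart, and Elovl6 fell by 0.35 ± 0.049 (adjusted p = 7.2e-05). GRKO organoids held 11.23, 11.18, 11.13, 11.12 and 11.16 with vehicle and 11.12, 11.05, 11.17, 11.21 and 11.13 with aldosterone, which overlap (-0.03 ± 0.044). WT minus GRKO was -0.32 ± 0.063 (adjusted p = 0.0021), in a fit that gave 1 of 38 members lower (background 0.712% lower) and kept Elovl6 whichever library was left out. That count was 2 without WT vehicle 1 or WT aldosterone 3, where Stard4 passed as well. It was 3 without WT aldosterone 4 or GRKO vehicle 1, where Stard4 and Insig2 did. Both organoid tables were normalized separately, with lowest values of 5.93 (WT) and 6.65 (GRKO), so unequal shrinkage may enter the WT minus GRKO differences.

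In cells Elovl6 changed less. Parental MR580C cells held 12.36, 12.36 and 12.28 with vehicle, 12.36, 12.37 and 12.33 with aldosterone and 12.23, 12.23 and 12.20 with corticosterone, and it fell by 0.11 ± 0.032 with corticosterone (adjusted p = 0.046). That call was lost without vehicle 1 (0.20), vehicle 2 (0.094), corticosterone 1 (0.095), corticosterone 2 (0.13), corticosterone 3 (0.19) or aldosterone 1 (0.055), and under quantile normalization (0.053). The difference from aldosterone, -0.13 ± 0.032 (adjusted p = 0.019), was lost without corticosterone 1 (0.061), corticosterone 2 (0.080), corticosterone 3 (0.13), aldosterone 1 (0.058) or aldosterone 2 (0.068). Under corticosterone Elovl6 was 12.64 and 12.63 against 12.76, 12.73 and 12.77 in parental MR cells and 13.37, 13.45 and 13.42 against 13.35, 13.35 and 13.28 in GRKO MR cells, and these responses differed by -0.20 ± 0.043 (adjusted p = 0.021). Aldosterone in GRKO MR cells gave 13.37, 13.32 and 13.36 against 13.28, 13.28 and 13.20, without overlap. That rise did not pass by limma, and the authors' deposited table called it raised (log2 fold change 0.14, adjusted p = 0.037).

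Scd1, the stearoyl-CoA desaturase that makes oleate (chr19:44394450-44407709), and Fasn, the fatty acid synthase (chr11:120805958-120824547), both passed in parental MR580C cells, under different hormones. Scd1 was 15.48, 15.35 and 15.38 with vehicle, 15.60, 15.77 and 15.62 with aldosterone and 15.47, 15.52 and 15.45 with corticosterone. Aldosterone libraries lay above all others, and Scd1 rose by 0.26 ± 0.049 with aldosterone (adjusted p = 0.0083; 0.12 without vehicle 3). The corticosterone difference was 0.07 ± 0.049 (adjusted p = 0.47). Corticosterone against aldosterone gave -0.18 ± 0.049 (adjusted p = 0.040), lost without vehicle 3 (0.087), corticosterone 1 (0.14), corticosterone 2 (0.11), corticosterone 3 (0.21) or aldosterone 2 (0.19). In GRKO MR cells corticosterone gave Scd1 values of 16.23, 16.23 and 16.27 against 15.99, 16.09 and 16.12, without overlap. That difference of 0.17 did not pass by limma. The authors' deposited table called it raised (log2 fold change 0.25, adjusted p = 9.5e-05).

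In parental MR580C cells Fasn was 15.34, 15.16 and 15.31 with vehicle, 15.13, 15.19 and 15.19 with aldosterone and 15.04, 14.99 and 14.88 with corticosterone. It fell by 0.30 ± 0.049 with corticosterone (adjusted p = 0.00026), a call that held whichever library was left out. The difference from aldosterone, -0.20 ± 0.049 (adjusted p = 0.021), was lost without vehicle 3 (0.051), corticosterone 2 (0.11), corticosterone 3 (0.20), aldosterone 2 (0.066) or aldosterone 3 (0.078). The remaining 6 genes of this group (Acaca, Acly, Acss2, Scd2, Fads1 and Fads2) passed in no comparison by limma with the settings above, with differences from vehicle between 0.16 for Scd2 with aldosterone in parental MR580C cells and -0.15 for Fads2 with aldosterone in GRKO organoids. In parental MR580C cells Scd2 was called raised in the authors' deposited table by aldosterone (log2 fold change 0.16, adjusted p = 0.0020) and by corticosterone (0.09, adjusted p = 0.037), and it passed for aldosterone with no trend in the variance prior and for both hormones with quantile normalization. Acss2, which makes acetyl-CoA from acetate, was called raised by corticosterone in GRKO MR cells in the authors' deposited table (0.18, adjusted p = 0.038).

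Of the 3 genes of efflux and degradation, Mylip passed the test in several comparisons. It encodes a ubiquitin ligase that marks lipoprotein receptors for degradation, is a target of the sterol-sensing liver X receptors, and lies at chr13:45389742-45411940. In WT organoids it ran from 7.97 to 8.46 (median 8.26) with vehicle and from 7.82 to 8.04 (median 7.87) with aldosterone. The groups overlapped by 1 vehicle library, and Mylip fell by 0.35 ± 0.077 (adjusted p = 0.0057). GRKO organoids held 8.40, 8.41, 8.42, 8.43 and 8.35 with vehicle and 8.24, 8.19, 8.21, 8.26 and 8.19 with aldosterone, without overlap (-0.18 ± 0.046, adjusted p = 0.071), and the authors' deposited table called it lowered there (log2 fold change -0.36, adjusted p = 0.020). WT minus GRKO was -0.17 ± 0.091 (adjusted p = 0.47).

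In parental MR580C cells Mylip was 10.96, 10.93 and 11.02 with vehicle, 10.94, 11.03 and 10.93 with aldosterone and 10.81, 10.85 and 10.74 with corticosterone. Corticosterone libraries lay below all others, and it fell by 0.17 ± 0.038 (adjusted p = 0.0064; 0.071 without vehicle 3 and 0.069 without corticosterone 3). Its difference from aldosterone was -0.17 ± 0.038 (adjusted p = 0.013; 0.13 without corticosterone 3 and 0.085 without aldosterone 2). In the MR lines corticosterone gave 9.94 and 10.03 against 10.14, 10.14 and 10.10 in parental cells and 10.66, 10.58 and 10.62 against 10.49, 10.57 and 10.53 in GRKO cells. The parental response was below vehicle and the GRKO response above it, and they differed by -0.23 ± 0.045 (adjusted p = 0.011). With 1 library left out, this difference ran from -0.27 to -0.19. The sterol exporters Abca1 and Abcg1, also liver X receptor targets, passed in no comparison in which they were tested.

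**Figure D3:**
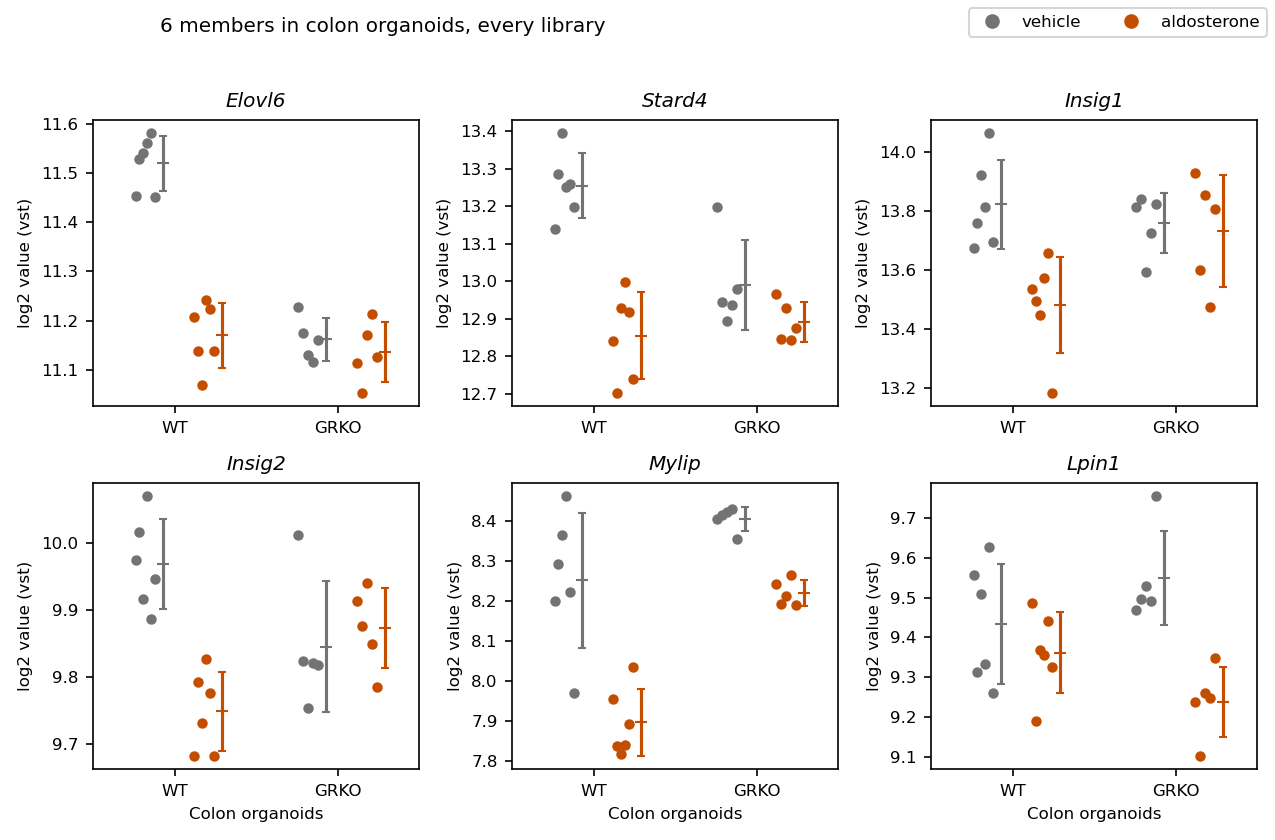
Log2 values (vst) of Elovl6, Stard4, Insig1, Insig2, Mylip and Lpin1 in WT and GRKO colon organoids, 1 point per library, with the mean and SD of each group beside its points. Axes differ between panels and do not start at 0; aldosterone lies below vehicle in WT organoids for the first 5 genes, and in GRKO organoids for Mylip and Lpin1.

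The 5 genes lowered in WT organoids included 3 of the 6 genes grouped as SREBP regulators (Insig1, Insig2 and the carrier Stard4). The others were 1 of the 10 fatty acid genes and 1 of the 3 efflux and degradation genes. The authors' deposited table called the same 5. Of the 8 mevalonate genes 0 passed by limma or in the authors' deposited table (3 lower unadjusted), and of the 11 genes from squalene to cholesterol 0 passed by either (0 unadjusted). As in any bulk sample, fewer cells of a type and less RNA per cell cannot be told apart. Of 13 intestinal epithelial markers, 1 passed in WT organoids, Cdx2, which fell by 0.37 ± 0.074 (adjusted p = 0.0026), and the summed level of the list was 18.32 to 18.42 with vehicle and 18.36 to 18.45 with aldosterone on the log2 scale. In GRKO organoids 1 passed, Slc26a3, an apical anion exchanger of mature colonocytes, which rose by 0.61 ± 0.088 (adjusted p = 0.0010), with sums of 18.18 to 18.49 and 18.43 to 18.60. In WT organoids 3 of 4 immune, 3 of 3 fibroblast and 2 of 2 endothelial markers lay within 1 log2 unit of the lowest value of the table (5.93), and 0 of these 9 were called by limma (0 unadjusted). The fibroblast sum was 7.77 to 8.17 with vehicle and 7.78 to 9.86 with aldosterone. Of 3 adipocyte markers 2 lay within 1 log2 unit of that value, and Cidec, a lipid droplet protein, rose by 0.40 ± 0.077 (adjusted p = 0.0022). The part of these markers in the results was not tested.

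Read library by library, the 38 genes moved together by little. Their median deviation from the vehicle mean was 0.03 to 0.07 in the 3 aldosterone libraries of GRKO MR cells and 0.04 to 0.06 in the 3 corticosterone libraries, above all 3 vehicle libraries (-0.01 to 0.02). Parental MR cells with corticosterone stood at -0.03 and -0.04, below their vehicle libraries. Aldosterone in parental MR580C cells gave 0.05 to 0.12, and aldosterone in cells without added MR 0.01 to 0.04, again above vehicle. The same median over all varying genes stayed within 0.02 of 0 in every library. In WT organoids the libraries spread from -0.14 to 0.08 with aldosterone and from -0.09 to 0.09 with vehicle, so a shift of the set was within the spread.

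**Figure D4:**
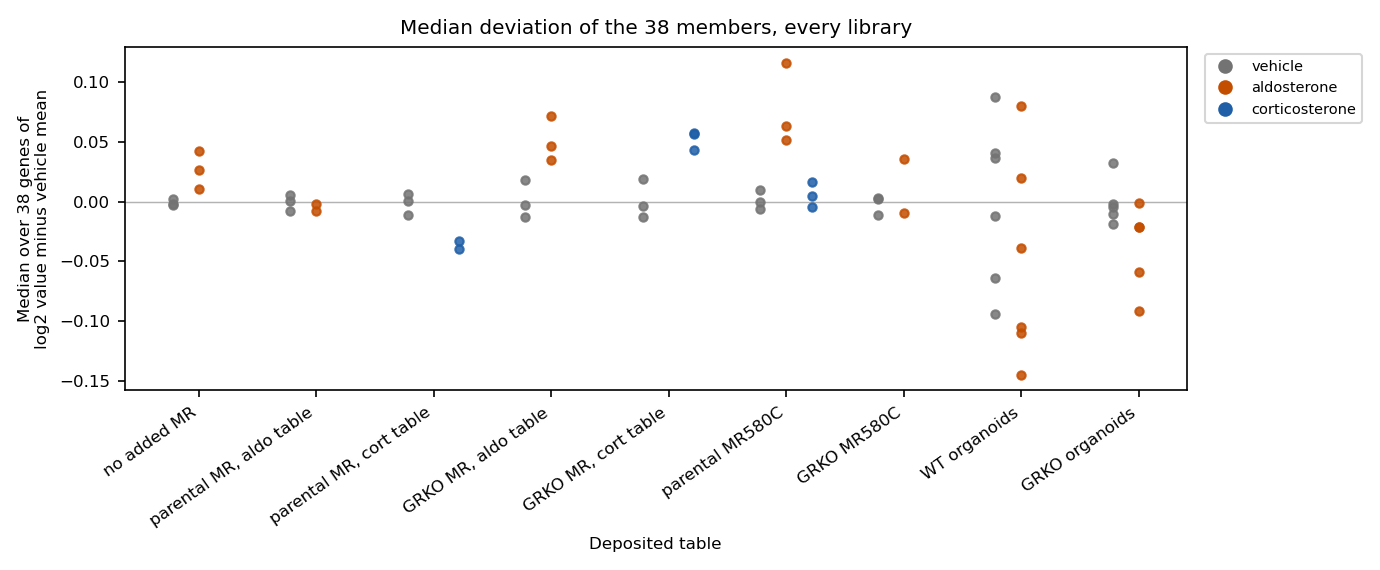
Median over the 38 genes of the log2 value minus the vehicle mean of the same table (vertical axis), 1 point per library, by deposited table. Hormone points lie above vehicle in GRKO MR cells and for aldosterone in parental MR580C cells, below it for corticosterone in parental MR cells, and are mixed with vehicle in WT organoids.

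The table of corticosterone in GRKO MR580C cells lists 404 genes, 7 of them members, and was described without a test. By the authors' deposited table, of these 6 were raised: Hmgcs1 (log2 fold change 0.24), Sc5d (0.22), Scd1 (0.18), Msmo1 (0.15), Cyp51 (0.15) and Insig1 (0.14), which encode synthesis enzymes apart from Insig1, and 1 was lowered, Acaca, the acetyl-CoA carboxylase (-0.16). Insig1 was thus listed as higher after corticosterone in GRKO MR580C cells and was lower in parental MR580C cells (-0.27 in the authors' deposited table). This difference was not tested, since both tables are on different scales. Since all 7 listed members were called, the short list may hold called genes only. The 6 and 1 are therefore not a share to set beside other comparisons.

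Other genes of sterol and fatty acid supply, a list of 32 neighbours, gave few calls in cells: 0 for aldosterone in the MR lines, in GRKO MR580C cells and without added MR, and 0 for corticosterone in GRKO MR cells, all by limma. At an unadjusted p under 0.05, aldosterone gave 1 higher and 0 lower in parental MR cells, 6 and 1 in GRKO MR cells, 4 and 3 in GRKO MR580C cells and 2 and 0 without added MR, and corticosterone 7 and 1 in GRKO MR cells; the counts over all genes are those given above for the same comparisons. Corticosterone in parental MR cells raised 1, Npc1, which exports cholesterol from lysosomes (0.19 ± 0.033, adjusted p = 0.014; background 2.08% raised), and in parental MR580C cells 2 were raised (Npc1 and the elongase Elovl5) and 2 lowered, among them Mid1ip1 (-0.14 ± 0.035; backgrounds 3.45% raised and 3.47% lowered). Aldosterone in parental MR580C cells lowered Acsl5, an acyl-CoA synthetase (-0.14 ± 0.032; background 0.431% lowered). In WT organoids aldosterone raised 7 of the 32, beside 4.23% of all genes tested, and lowered 0 (1 lower unadjusted). Npc1 rose by 1.04 ± 0.057 (adjusted p = 5e-10), the lipoprotein receptor gene Vldlr by 0.93 ± 0.11, Gpam, which starts glycerolipid synthesis, by 0.74 ± 0.06, and Dgat2, which completes triglyceride synthesis, by 0.40 ± 0.051. In GRKO organoids 0 of the 32 passed by limma (6 higher and 2 lower unadjusted, beside 1107 and 957 of 20050 genes). The WT response was higher than the GRKO response for 4, beside 1.87% of all genes tested, including Npc1 (0.78 ± 0.085), Vldlr (0.67 ± 0.14) and Gpam (0.64 ± 0.077). As a reference for the hormone itself, Sgk1, a classical aldosterone target, rose by 5.68 ± 0.076 in WT and 4.05 ± 0.07 in GRKO organoids.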

How the data were processed

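RNA was sequenced after TruSeq stranded total RNA preparation, per the labels' protocols. Reads were aligned to mm10 and counted per gene with HOMER, per the file headers; STAR 2.7.0f and HOMER 4.10.4 are named in the submitters' processing notes. The authors deposited log2 values per library, named vst in the headers of the organoid and parental MR580C tables and with no transformation named in the others, with a log2 fold change, a p-value and an adjusted p-value for each gene. Both scales shrink differences, those of weakly expressed genes most, and each table was normalized separately.

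From the log2 values, limma 3.58.1 (R 4.3.3) with a trend in the variance prior was fitted to each table over genes with a value of at least log2 3.32 (10 on the linear scale) in as many libraries as the smaller group. Tests were 2-sided, p-values were Benjamini-Hochberg adjusted over all genes tested, and errors are SEs of limma. Responses were compared between lines only for tables with the same type of scale, each line with its own intercept. As these tables were normalized separately, they may shrink differences unequally, which an intercept does not remove. The fits were tested on simulated data. The depths are the read totals in the authors' column names, and their number limits precision.

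The alternatives were no filter on low values, equal libraries kept separate, quantile normalization, no trend, a replicate block, single libraries left out and the authors' adjusted p. Values by library are given for genes that passed at least once and for the gene with the smallest p in each role group; other genes are given by counts and ranges. The 38 genes and the lists were chosen with earlier results of these data known. The table of corticosterone in GRKO MR580C cells was not tested, the corticosterone library 2 of parental MR cells has no column, 8 tables equal to others byte for byte were not used, and the chromatin samples were not analysed here.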

Additional observations from a re-analysis of the deposited data

Results flagged for a closer look

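Of 48 tests for a library far from the others, each of 1 gene in 1 group, 4 were flagged, all in vehicle GRKO organoids. Vehicle 1 was flagged for several genes, so the tests are not independent and were not set against a chance rate. Lpin1 was 9.7562 in vehicle 5, with the others from 9.47 to 9.53. Vehicle 1 stood apart for Srebf1 (11.6549, the others 12.06 to 12.18), Insig2 (10.0119, the others 9.75 to 9.82) and Stard4 (13.1992, the others 12.90 to 12.98).

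Responses to corticosterone differed between parental and GRKO MR cells, by the test of the difference itself, for Insig1 (-0.4925), Lpin1 (-0.4182), Mylip (-0.2298), Elovl6 (-0.2044), Fdft1 (-0.1629) and Lss (-0.1621), all lower in the parental line. The response of Elovl6 to aldosterone differed between WT and GRKO organoids (-0.323).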

How the results depend on the processing

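Of 318 values of called genes with 1 library left out, 262 kept direction and call, 56 lost the call and 0 reversed. The number of members called with 1 library left out follows, without fits that left 1 library of a hormone, which the 318 values include. For aldosterone it ran from 0 to 0 in parental MR cells, 0 to 12 in GRKO MR cells and 1 to 4 in parental MR580C cells. It ran from 0 to 0 in GRKO MR580C cells, 0 to 2 without added MR, 5 to 6 in WT organoids and 0 to 3 in GRKO organoids. For corticosterone it ran from 2 to 2 in parental MR cells, 0 to 4 in GRKO MR cells and 4 to 8 in parental MR580C cells, and from 2 to 9 for corticosterone against aldosterone there. Between lines it ran from 0 to 1 and from 3 to 7 for parental against GRKO MR cells (aldosterone, corticosterone), 0 to 1 for parental MR cells against no added MR and 1 to 3 for the organoids. With no trend in the variance prior aldosterone called 0 members in GRKO MR cells, 4 in parental MR580C cells and 2 in GRKO organoids, and quantile normalization gave 4 in parental MR580C cells. The authors' deposited adjusted p gave, for aldosterone, 1 in parental MR cells, 4 in GRKO MR cells, 2 in GRKO MR580C cells and 2 in GRKO organoids, and for corticosterone 6 in GRKO MR cells and 11 in parental MR580C cells. With the equal libraries kept separate, 3 were called in GRKO MR580C cells (Hmgcs1, Cyp51 and Fdps), and 683 of all genes passed, beside 37 with them merged. With the replicate number as a block, aldosterone called 2 members in parental MR cells, 9 in GRKO MR cells and 0 in GRKO organoids (Lpin1, adjusted p = 0.359), corticosterone 7 in parental MR cells and 3 in GRKO MR cells, and the aldosterone response differed between these lines for 4. The numbers were not taken to pair samples. No line with 3 or more pairs had every correlation of same-numbered deviations over 0.1 (-0.304 to 0.509). Parental MR cells had 2 pairs per hormone, all over 0.1 (0.675 to 0.75), so samples may be paired in that line. With the block 365 genes passed there with aldosterone, beside 87 without it, and 1257 with corticosterone, beside 388. The cause of these changes was not tested.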
